A study of Mus musculus with 6 samples.

Results

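Glycolysis and HIF1 target genes were examined in mouse bone marrow-derived macrophages, 34 genes chosen by name out of 24016 in the deposited table of expression values, and all 34 were found there and passed the filter on low reads. By role they comprised 17 glycolytic enzymes, 5 genes of glucose and lactate transport and glycolytic flux control, Hif1a itself, and 11 targets of HIF1 that are not glycolytic enzymes. The macrophages were grown with M-CSF from the leg bones of female C57BL/6N mice aged 8 weeks, without phenol red and with charcoal-stripped serum. Each culture received an estrogen at 1 µM, or ethanol, for 1 h and then 100 ng/mL lipopolysaccharide (LPS, a bacterial cell wall component) for 6 h before RNA was taken. The hydroxyestrogen group holds 3 libraries: replicate 1 received 2OHE2, which is 2-hydroxyestradiol, replicate 2 received 4OHE1, which is 4-hydroxyestrone, and replicate 3 received 2OHE1, which is 2-hydroxyestrone. The control group also holds 3: replicate 1 received the ethanol vehicle (EtOH), replicate 2 received estradiol (E2), and replicate 3 received a compound that the labels call 16Epi and do not spell out. All 6 cultures carried LPS, so none gives a resting level. Each compound was sequenced once and the labels do not say whether cultures came from separate animals. The p-values of the group comparison thus rest on the spread of 6 libraries, and each SD on 3. Within a group that spread mixes differences between treatments with those between cultures, and part of it may be technical. The p-values by compound and by pair of compounds take their spread from the 3 controls only. One label field gives the groups the other way round, and the groups here follow the titles and the table headers. The dose follows from stocks diluted 1000-fold, since its unit in the labels is garbled.

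Glycolysis splits glucose into pyruvate through a chain of cytosolic enzymes, and lactate dehydrogenase then turns pyruvate into lactate, which leaves the cell through monocarboxylate transporters. Macrophages given LPS lean on this route, and the transcription factor HIF1 drives many of its genes. Its subunit HIF1α, the product of Hif1a, is marked for destruction by oxygen-dependent prolyl hydroxylases (the Egln genes) and accumulates when these are inactive, so its mRNA is only 1 of the levels at which it is controlled. HIF1 binds DNA at hypoxia response elements, whose core reads ACGTG or GCGTG, and also raises genes outside glycolysis that act in blood vessel growth, mitophagy and collagen modification.

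Promoter sequence was available in RefSeq (GRCm38.p6) for 32 of the 34 genes; Bnip3l and Ndrg1 are named only. In the 250 bases before an annotated start, 29 of the 32 genes had an ACGTG or GCGTG core on either strand in at least 1 of their windows, against 61.8% of 9024 tested genes with a promoter entry. The 3 without one were Gpi1, Eno2 and Tpi1. A gene with more windows has more room for a match in that count. Counted by window, either core was present in 80.4% of the 46 windows of these genes and in 55.8% of 11455 windows of tested genes. ACGTG alone was present in 23 of the 46 windows and in 21.7% of those of tested genes. The E-box CACGTG, which holds an ACGTG core, was present in 13.0% and 8.32%. Several windows of a gene overlap one another, and a match is only a match of letters. The following are shown because these genes carry the differences described below: Gapdh at chr6:125165774-125166023 (minus strand), Pgk1 at chrX:106186850-106187099 (plus strand), Pgam1 at chr19:41911621-41911870 (plus strand), Slc2a1 at chr4:119108495-119108744 (plus strand), Pfkfb3 (1 of its 2 windows) at chr2:11502091-11502340 (minus strand) and Ankrd37 at chr8:45999851-46000100 (minus strand). Each runs 5′ to 3′ along the gene's strand and ends at the base before the start, with the cores, or CACGT and CACGC where the core is on the other strand, in capitals.
Gapdh: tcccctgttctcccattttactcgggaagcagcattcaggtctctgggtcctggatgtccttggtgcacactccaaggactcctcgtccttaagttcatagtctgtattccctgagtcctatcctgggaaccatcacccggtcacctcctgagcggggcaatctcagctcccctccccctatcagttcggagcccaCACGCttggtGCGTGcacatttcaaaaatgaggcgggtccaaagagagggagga
Pgk1: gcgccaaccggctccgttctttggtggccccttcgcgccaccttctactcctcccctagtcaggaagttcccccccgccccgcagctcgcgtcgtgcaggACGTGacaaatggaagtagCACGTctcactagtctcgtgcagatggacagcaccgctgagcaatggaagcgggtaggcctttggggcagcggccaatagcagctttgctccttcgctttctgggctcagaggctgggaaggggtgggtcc
Pgam1: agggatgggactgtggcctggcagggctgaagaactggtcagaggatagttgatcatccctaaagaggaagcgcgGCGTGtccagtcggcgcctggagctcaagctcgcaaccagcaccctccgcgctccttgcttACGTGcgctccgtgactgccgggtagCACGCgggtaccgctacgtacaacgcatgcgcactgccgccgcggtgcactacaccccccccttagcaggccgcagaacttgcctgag
Slc2a1: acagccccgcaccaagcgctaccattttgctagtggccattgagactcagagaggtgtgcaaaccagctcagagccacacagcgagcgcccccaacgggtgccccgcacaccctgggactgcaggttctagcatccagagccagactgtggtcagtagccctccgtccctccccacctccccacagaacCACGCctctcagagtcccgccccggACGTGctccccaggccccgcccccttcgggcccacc
Pfkfb3: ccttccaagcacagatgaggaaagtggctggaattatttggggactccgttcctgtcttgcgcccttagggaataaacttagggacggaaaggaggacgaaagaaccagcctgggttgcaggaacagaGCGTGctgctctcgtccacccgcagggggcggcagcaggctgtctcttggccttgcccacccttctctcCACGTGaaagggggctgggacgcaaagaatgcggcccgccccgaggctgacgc
Ankrd37: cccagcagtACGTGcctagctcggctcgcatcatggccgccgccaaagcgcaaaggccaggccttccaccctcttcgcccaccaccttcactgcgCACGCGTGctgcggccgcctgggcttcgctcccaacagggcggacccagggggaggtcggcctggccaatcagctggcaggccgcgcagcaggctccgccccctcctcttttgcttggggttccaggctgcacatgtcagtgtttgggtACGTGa
These windows were picked by the differences, so they cannot show how cores relate to direction. They hold cores for genes with higher values with hydroxyestrogens (Gapdh, Pgk1, Pgam1, Slc2a1, Ankrd37) and for 1 with lower values (Pfkfb3). Only Gapdh among them passed an adjusted p of 0.05 (limma, hydroxyestrogens against controls). Ankrd37 passed the filter on low reads only through the hydroxyestrogen group. Of the genes without a core, Gpi1 and Tpi1 also had higher values and Eno2 lower ones.

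The libraries held 14734225 to 17326353 reads in annotated genes. The 7 macrophage markers measured summed to 7732 to 8154 RPKM (reads divided by the length of the transcript and by the library total) in controls and 6921 to 8184 RPKM with hydroxyestrogens. B cell, erythroid and mast cell lists stayed at or under 0.254 RPKM in every library, and T cell and dendritic cell lists at or under 2.96 RPKM. The neutrophil list (7 genes measured) summed to 31.6 to 46.4 RPKM in controls and 28.8 to 36.2 RPKM with hydroxyestrogens, led by S100a8 (mean 28.2 RPKM), with Mpo, Elane and Ltf under 0.1 RPKM. Stromal genes summed to 16.7 to 20.1 and 13.3 to 20.1 RPKM, and endothelial genes to 6.20 to 7.90 and 3.30 to 6.73 RPKM. The megakaryocyte list summed to 181 to 225 RPKM in controls and 214 to 289 RPKM with hydroxyestrogens, nearly all of it Pf4 (mean 223 RPKM). The part of these lists in the results was not tested. In bulk RNA, fewer cells of a type and less RNA per cell cannot be told apart. The 4OHE1 library differed from the controls at more genes than the others, with 442 of 11991 genes past an adjusted p of 0.05 (3.69%) against 73 for 2OHE2 (0.609%) and 65 for 2OHE1 (0.542%).

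Most of the abundant glycolytic enzymes were a little higher in all 3 hydroxyestrogen libraries than in any control, by 1.11-fold (Tpi1) to 1.502-fold (Pgk1). Of the 17 enzymes, 10 were higher with no overlap between the groups, 2 were lower with no overlap and 5 overlapped. Over all 11991 genes tested, 9.15% were higher with no overlap and 10.8% lower. Among the 738 genes with a mean of at least 100 RPKM, 25.5% were higher with no overlap and 14.6% lower, and of the 7 enzymes at that level 6 were higher with no overlap. The median log2 difference of the 17 enzymes, on the log2(RPKM + 0.1) scale used throughout, was 0.20, against -0.025 for all genes tested. By limma with Benjamini-Hochberg adjustment over all genes tested, 1 enzyme passed 0.05, where 1.88% of all genes did, 1.28% higher and 0.600% lower. At an unadjusted p under 0.05 there were 9 enzymes higher and 1 lower, where 13.5% of all genes reached that p. The authors' deposited table, from their own test, calls 9 of the 17 higher and 0 lower at an adjusted p under 0.05. It calls 2.42% of all its 24505 genes, and 334 higher and 247 lower of the 11991 genes tested here. limma-voom on reads recovered from the values called 6 higher and 0 lower, where 3.61% of all genes passed.

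**Figure D1:**
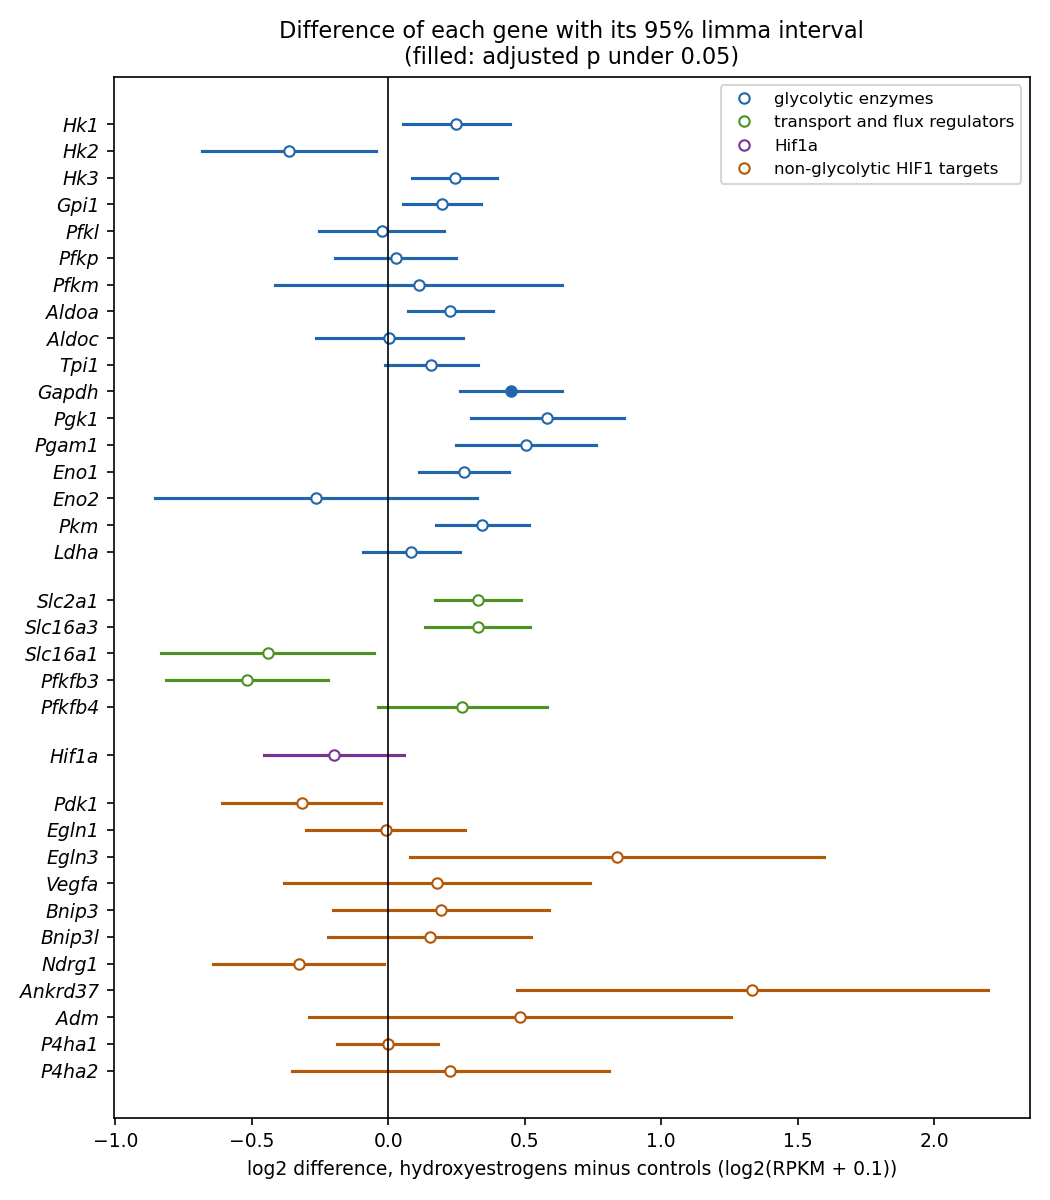
Difference of each gene between the hydroxyestrogen and control libraries (3 each) on the log2(RPKM + 0.1) scale; points are limma estimates and lines their 95% intervals, coloured by role, and the filled point, Gapdh, is the gene with an adjusted p under 0.05. Most glycolytic enzymes lie to the right of 0, while Hk2, Pfkfb3, Slc16a1, Pdk1 and Ndrg1 lie to the left.

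The enzyme that passed was Gapdh, glyceraldehyde-3-phosphate dehydrogenase, which makes the first NADH of the pathway and lies on chromosome 6 (125111870 to 125115791, minus strand, mm9). Gapdh was at 439 RPKM with EtOH, 405 with E2, 367 with 16Epi, 507 with 2OHE2, 588 with 4OHE1 and 559 with 2OHE1. The lowest hydroxyestrogen library stood above the highest control, and 16Epi was the lowest of all. Gapdh rose 1.37-fold (control mean 404 ± 36.0 RPKM, hydroxyestrogen mean 551 ± 40.9 RPKM, SD, n = 3 each). The log2 difference was 0.45 ± 0.083 SE (limma adjusted p = 0.0283), on 8638 to 16412 reads per library. The call was lost without control replicate 2 (adjusted p = 0.117), control replicate 3 (0.136), hydroxyestrogen replicate 2 (0.0794) or hydroxyestrogen replicate 3 (0.0822), and with median-ratio scaling (0.0652), at log2 differences of 0.38 to 0.47; no filter, no variance trend and the replicate block ended it too (0.110, 0.239 and 0.0522). The authors' deposited table also calls it higher (authors' adjusted p = 9.79e-06).

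The 2 enzymes that follow Gapdh in the chain had larger differences and missed the threshold. Pgk1, phosphoglycerate kinase, which makes ATP at the next step, was at 76.4 RPKM with EtOH, 78.7 with E2, 62.6 with 16Epi, 90.6 with 2OHE2, 120 with 4OHE1 and 116 with 2OHE1. Its groups did not overlap, and within the hydroxyestrogens 2OHE2 was the lowest. The log2 difference was 0.58 ± 0.12 SE (72.6 ± 8.69 against 109 ± 16.2 RPKM, SD, n = 3 per group; limma adjusted p = 0.0526), and it passed without hydroxyestrogen replicate 1, the 2OHE2 library (adjusted p = 0.0213). Pgam1, phosphoglycerate mutase, was at 38.8, 36.4 and 34.3 RPKM with EtOH, E2 and 16Epi, and at 55.4, 43.4 and 57.7 RPKM with 2OHE2, 4OHE1 and 2OHE1. Here 4OHE1 was the lowest hydroxyestrogen, the reverse of its place for Pgk1. The log2 difference was 0.51 ± 0.11 SE (limma adjusted p = 0.0650), and it passed without hydroxyestrogen replicate 2, the 4OHE1 library (adjusted p = 0.0146), and with median-ratio scaling (0.0495). The authors' deposited table calls both higher (authors' adjusted p = 6.88e-05 for Pgk1 and 0.000365 for Pgam1).

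**Figure D2:**
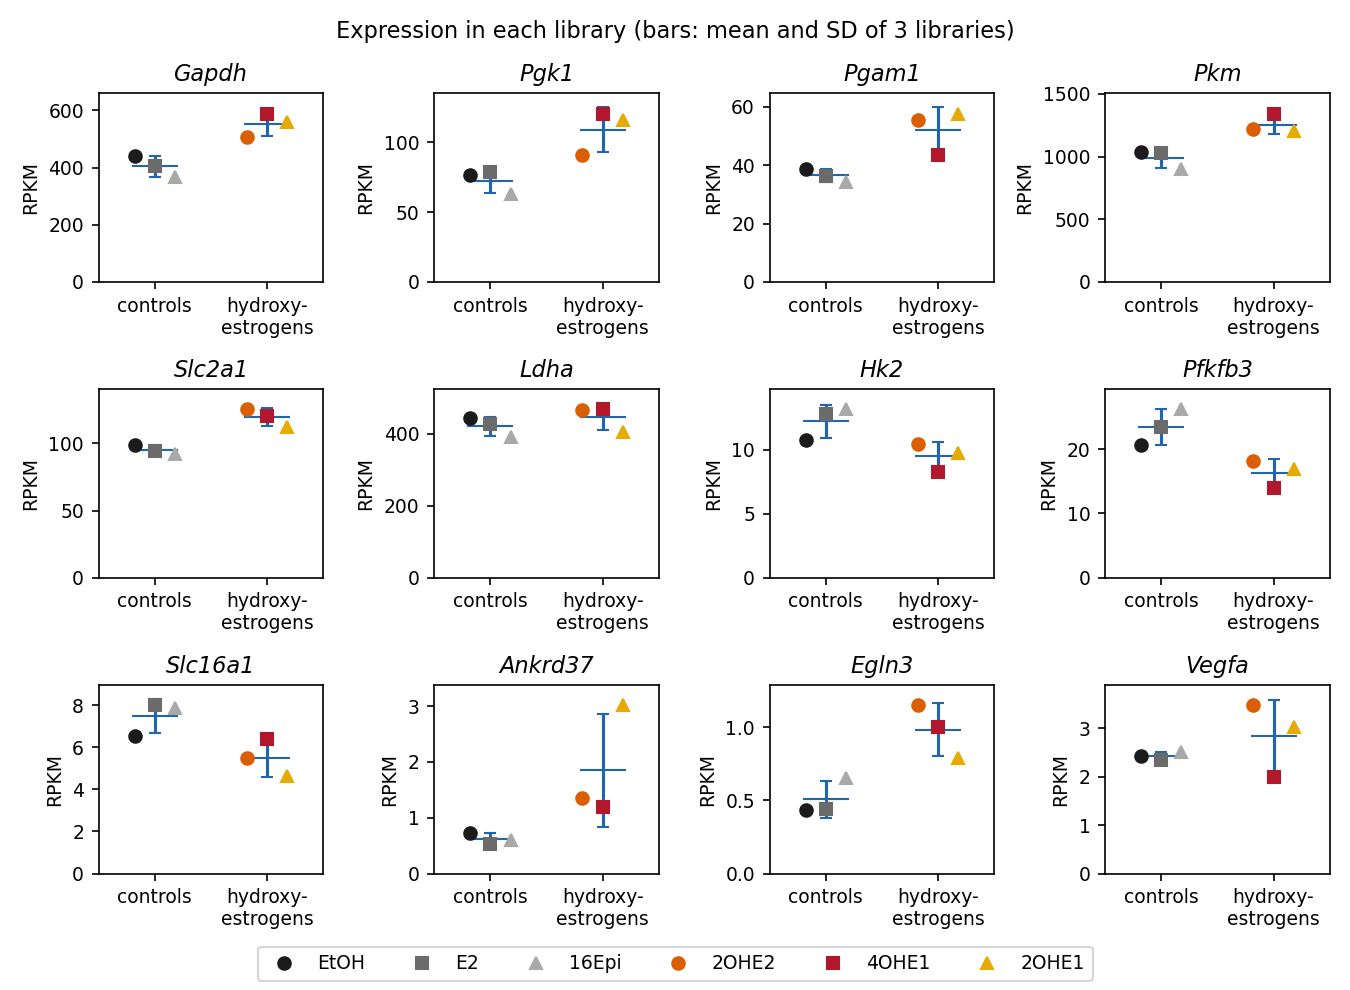
Expression of 12 of the genes in RPKM in each library, controls on the left and hydroxyestrogens on the right of each panel; blue bars are the mean and SD of 3 libraries and each axis starts at 0. Gapdh, Pgk1, Pgam1, Pkm and Slc2a1 do not overlap between groups and are higher with hydroxyestrogens, Ldha and Vegfa overlap, and Hk2, Pfkfb3 and Slc16a1 are lower with no overlap.

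Pyruvate kinase, Pkm, which yields pyruvate and ATP, was the most abundant of the 34 genes. It was at 1037 RPKM with EtOH, 1030 with E2, 901 with 16Epi, 1220 with 2OHE2, 1342 with 4OHE1 and 1204 with 2OHE1. These did not overlap, and the log2 difference was 0.35 ± 0.076 SE (limma adjusted p = 0.0601; authors' adjusted p = 0.000198 in the authors' deposited table). Exon counts do not tell its 2 splice forms apart. Eno1, the main enolase, had a log2 difference of 0.28 ± 0.074 SE, at 272, 257 and 236 RPKM with EtOH, E2 and 16Epi and at 312, 323 and 289.9 RPKM with 2OHE2, 4OHE1 and 2OHE1 (limma adjusted p = 0.124). It shares its locus and strand with an entry named Eno1b, at 247 to 284 RPKM in controls and 302 to 337 RPKM with hydroxyestrogens, so these reads were counted for both. Aldoa, the main aldolase, was at 774, 774 and 698 RPKM with EtOH, E2 and 16Epi and at 875, 922 and 830.4 RPKM with 2OHE2, 4OHE1 and 2OHE1 (log2 difference 0.23, limma adjusted p = 0.180). Both groups of Aldoa stood apart, with 16Epi lowest. Gpi1, glucose-6-phosphate isomerase, was at 133, 134 and 126 RPKM with EtOH, E2 and 16Epi and at 153, 153 and 146 RPKM with 2OHE2, 4OHE1 and 2OHE1 (log2 difference 0.20, limma adjusted p = 0.199). Tpi1, triosephosphate isomerase, was at 187, 174 and 156 RPKM with EtOH, E2 and 16Epi and at 194, 189.9 and 192 RPKM with 2OHE2, 4OHE1 and 2OHE1 (log2 difference 0.16, limma adjusted p = 0.414). Neither overlapped, but for Tpi1 the EtOH library lay just under all 3 hydroxyestrogens. Many of these enzymes have near-identical processed copies in the genome, and the sources used here do not state how reads shared with them were counted.

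Lactate dehydrogenase Ldha, a classical HIF1 target at the end of the chain, did not separate the groups. It was at 444 RPKM with EtOH, 426 with E2, 391 with 16Epi, 467 with 2OHE2, 467 with 4OHE1 and 404 with 2OHE1. The 2OHE1 library lay among the controls, and the log2 difference was 0.083 with a 95% limma interval of -0.094 to 0.26 (adjusted p = 0.704). The phosphofructokinases, which commit sugar to glycolysis, also overlapped: Pfkl had a log2 difference of -0.024 (interval -0.25 to 0.21), Pfkp 0.027 (-0.19 to 0.25) and Pfkm 0.11 (-0.41 to 0.64). The summed RPKM of the 3 was 49.7 to 55.2 in controls and 50.1 to 54.6 with hydroxyestrogens. Pfkp and Pfkm each overlap a gene on the other strand (Pitrm1 and Senp1), and without a stated strand setting a part of their reads is uncertain. The minor aldolase Aldoc, at 12.3 to 15.5 RPKM over all 6 libraries, overlapped as well (log2 difference 0.0043).

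The 3 hexokinases, which trap glucose in the cell, did not share a direction. Hk3, the most abundant in these macrophages, was at 79.4, 73.2 and 73.6 RPKM with EtOH, E2 and 16Epi and at 88.7, 92.2 and 86.8 RPKM with 2OHE2, 4OHE1 and 2OHE1. Hk1 was at 31.4, 31.1 and 28.7 RPKM with EtOH, E2 and 16Epi and at 35.8, 34.3 and 38.4 RPKM with 2OHE2, 4OHE1 and 2OHE1. Neither overlapped, at log2 differences of 0.24 ± 0.070 and 0.25 ± 0.087 SE (limma adjusted p = 0.156 and 0.248), and the authors' deposited table calls both higher (authors' adjusted p = 0.0322 for Hk3 and 0.0437 for Hk1). Hk2, the hexokinase known as a HIF1 and LPS target, was at 10.7, 12.7 and 13.1 RPKM with EtOH, E2 and 16Epi and at 10.4, 8.26 and 9.71 RPKM with 2OHE2, 4OHE1 and 2OHE1. The groups did not overlap, with EtOH and 2OHE2 nearly touching, and the log2 difference was -0.36 ± 0.14 SE (limma adjusted p = 0.298; authors' adjusted p = 0.0716 in the authors' deposited table). As a share of hexokinase RPKM, Hk2 was 10.4% ± 1.35 in controls and 7.02% ± 0.818 with hydroxyestrogens (SD, n = 3 per group). Since Hk2 was lower and Hk1 and Hk3 higher with no overlap, this share separates by construction. The summed hexokinase RPKM was 115 to 122 in controls and 135 in each hydroxyestrogen library. The neuronal enolase Eno2, on 51 to 75 reads, was at 1.57, 1.39 and 1.35 RPKM with EtOH, E2 and 16Epi and at 1.03, 1.26 and 1.26 RPKM with 2OHE2, 4OHE1 and 2OHE1, also lower with no overlap (log2 difference -0.26, interval -0.85 to 0.33).

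**Figure D3:**
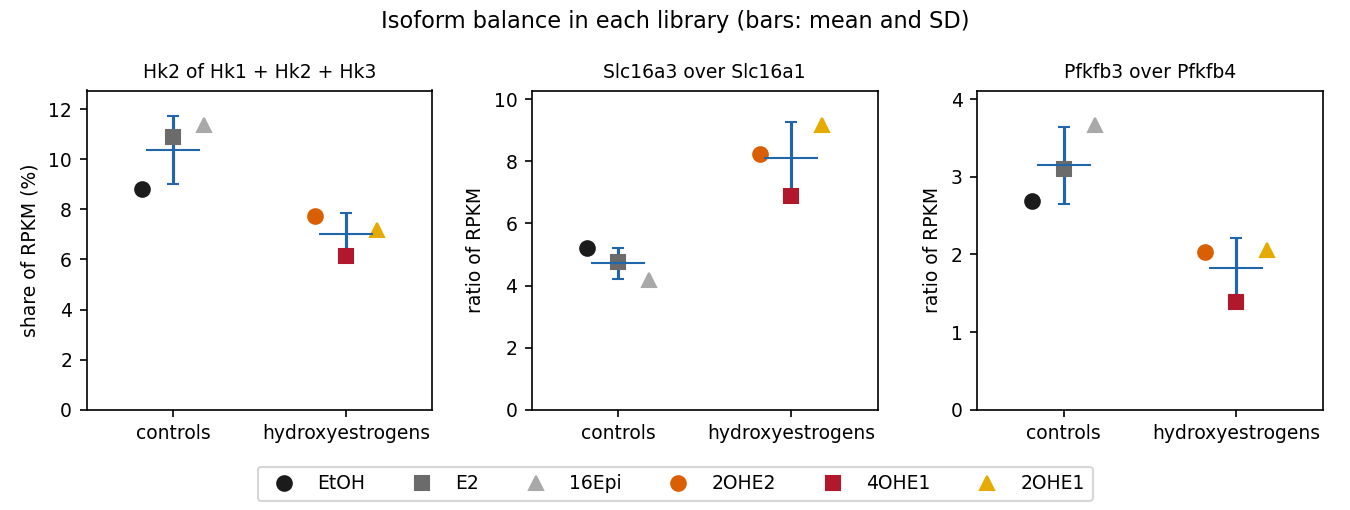
Balance of related genes in each library: the share of hexokinase RPKM from Hk2 (%), the ratio of Slc16a3 to Slc16a1 and the ratio of Pfkfb3 to Pfkfb4 (ratios of RPKM); blue bars are the mean and SD of 3 libraries. In each panel the 3 hydroxyestrogen libraries lie on one side of the 3 controls.

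Transport and flux regulators did not share a direction either, with 3 of 5 higher and 2 of 5 lower, all 5 with no overlap, and 0 past limma's adjusted threshold (4 at an unadjusted p under 0.05; 1 higher and 1 lower by limma-voom). Over all genes, 20.0% did not overlap (9.15% higher and 10.8% lower), 13.5% had such a p and 3.61% passed by limma-voom. Slc2a1, the glucose importer GLUT1, was at 98.7 RPKM with EtOH, 94.1 with E2, 91.7 with 16Epi, 125 with 2OHE2, 120 with 4OHE1 and 112 with 2OHE1. All 3 hydroxyestrogens stood well above the controls, which differed little among themselves, and the log2 difference was 0.33 ± 0.071 SE (limma adjusted p = 0.0542). Slc16a3, the lactate exporter MCT4 of glycolytic cells, was at 33.99, 37.98 and 32.9 RPKM with EtOH, E2 and 16Epi and at 45.2, 44.1 and 42.3 RPKM with 2OHE2, 4OHE1 and 2OHE1 (log2 difference 0.33 ± 0.086 SE, limma adjusted p = 0.115). The authors' deposited table calls both higher (authors' adjusted p = 0.000221 for Slc2a1 and 0.0171 for Slc16a3). Its relative Slc16a1, the transporter MCT1, was at 6.54, 7.99 and 7.87 RPKM in EtOH, E2 and 16Epi and at 5.48, 6.41 and 4.61 RPKM in 2OHE2, 4OHE1 and 2OHE1. It was lower with no overlap, though EtOH and 4OHE1 stood close (log2 difference -0.44 ± 0.17 SE, limma adjusted p = 0.307). The ratio of Slc16a3 to Slc16a1 was 4.71 ± 0.508 in controls and 8.10 ± 1.16 with hydroxyestrogens (SD, n = 3 per group), a separation that follows from that of the 2 genes.

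Pfkfb3, the kinase that makes fructose-2,6-bisphosphate and so activates phosphofructokinase, had the lowest log2 difference of the 34 genes. It was at 20.6 RPKM with EtOH, 23.4 with E2, 26.2 with 16Epi, 18.2 with 2OHE2, 13.9 with 4OHE1 and 16.9 with 2OHE1. All 3 hydroxyestrogens were below all controls, with 4OHE1 lowest and 16Epi highest. The log2 difference was -0.52 ± 0.13 SE (23.4 ± 2.76 against 16.3 ± 2.16 RPKM, SD, n = 3 per group; limma adjusted p = 0.106), and it is the 1 gene of the 34 that the authors' deposited table calls lower (authors' adjusted p = 0.000591). It was also called with limma-voom (adjusted p = 0.0108), and by limma from the authors' log2 values (0.00473) and among genes with at least 100 reads in 3 libraries (limma adjusted p = 0.0477). It was not called with a pseudocount of 1 (limma adjusted p = 0.103), no filter (0.202) or median-ratio scaling (0.0927). Nor was it called without a variance trend (0.280), with the replicate block (0.139) or with any library left out (0.0940 to 0.394). Pfkfb4, a relative with the same pair of opposing activities, was at 7.70, 7.55 and 7.12 RPKM with EtOH, E2 and 16Epi and at 8.92, 10.04 and 8.20 RPKM with 2OHE2, 4OHE1 and 2OHE1 (log2 difference 0.27, interval -0.037 to 0.58). The ratio of Pfkfb3 to Pfkfb4 was 3.15 ± 0.497 in controls and 1.83 ± 0.381 with hydroxyestrogens (SD, n = 3 per group), which again follows from the 2 genes.

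Hif1a, which encodes HIF1α, did not separate the groups. Its mRNA was at 41.1 RPKM with EtOH, 35.0 with E2, 44.3 with 16Epi, 35.4 with 2OHE2, 31.1 with 4OHE1 and 38.4 with 2OHE1. The groups overlapped, E2 lying below 2OHE2 and 2OHE1, and the log2 difference was -0.20 with an interval of -0.45 to 0.060 (limma adjusted p = 0.503). Among genes that set HIF1α stability, Egln1 (the hydroxylase PHD2) was at 8.49 to 10.1 RPKM over all 6 libraries with a log2 difference of -0.0096 (interval -0.30 to 0.28); its sign turned with median-ratio scaling (0.0096).

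The non-glycolytic HIF1 targets did not share a direction. Of the 11, 2 were higher with no overlap (Egln3, and Ankrd37, which passed the filter on reads only through the hydroxyestrogen group), 2 were lower with no overlap (Pdk1 and Ndrg1) and 7 overlapped, where 9.15% of all genes were higher and 10.8% lower with no overlap. limma called 0 of the 11 (4 at an unadjusted p under 0.05, where 13.5% of all genes were), the authors' deposited table calls 0, and limma-voom called 0. Their median log2 difference was 0.18, close to the 0.20 of the glycolytic enzymes, with values from -0.33 to 1.33, and it moved with the libraries, from 0.018 without hydroxyestrogen replicate 1 to 0.26 without hydroxyestrogen replicate 2. The difference between the 2 medians was 0.019, and its sign turned without control replicate 1 (-0.0072) or hydroxyestrogen replicate 2 (-0.067). It was 0.17 without hydroxyestrogen replicate 1, 0.14 among genes with at least 100 reads in 3 libraries and 0.15 from the authors' log2 values. Whether the medians set the 2 classes apart thus depends on the setting and the libraries. Their levels differed. The 11 targets summed to 80.1 to 87.0 RPKM in controls and 81.5 to 86.6 RPKM with hydroxyestrogens. The 17 enzymes summed to 3152 to 3593 RPKM in controls and 4000 to 4354 RPKM with hydroxyestrogens. The largest terms were P4ha1 among the targets (mean 29.2 RPKM over all libraries) and Pkm and Aldoa among the enzymes (1122 and 812 RPKM). Each sum thus follows its most abundant genes and does not describe its class as a whole.

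**Figure D4:**
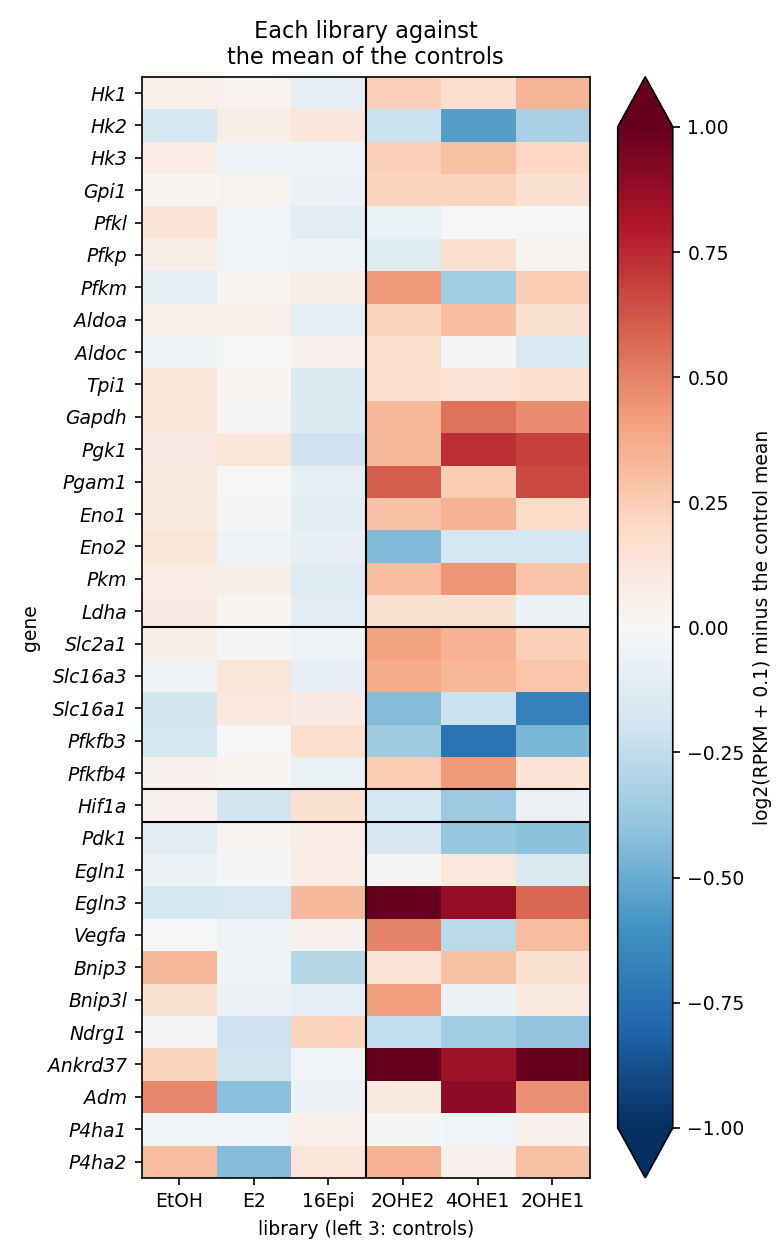
Each library's deviation from the mean of the 3 controls for all 34 genes, in log2(RPKM + 0.1) units, red above and blue below the control mean, with colours saturating at 1 unit; black lines separate, from the top, glycolytic enzymes, transport and flux regulators, Hif1a and the non-glycolytic HIF1 targets. Rows of one sign across the 3 right-hand columns are frequent among the enzymes, and Vegfa and Pfkm are among the genes with both signs among the hydroxyestrogens.

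Ankrd37, an ankyrin repeat protein induced by hypoxia, had a high log2 difference on few reads, and it passed the filter of 10 reads in 3 libraries through the hydroxyestrogen group, where it is high, since 1 of the controls reached 10. It was at 0.734 RPKM with EtOH, 0.523 with E2, 0.602 with 16Epi, 1.36 with 2OHE2, 1.19 with 4OHE1 and 3.02 with 2OHE1, from 8 to 12 reads in controls and 21 to 50 with hydroxyestrogens. The 2OHE1 library stood above the other hydroxyestrogens, the groups did not overlap, and the log2 difference was 1.33 ± 0.38 SE (interval 0.47 to 2.20, limma adjusted p = 0.159). Its span overlaps by 49 nt that of Ufsp2 on the other strand, which was at 18.4 to 23.7 RPKM in controls and 14.8 to 19.8 RPKM with hydroxyestrogens, lowest in 2OHE1. Egln3, the inducible hydroxylase PHD3, was at 0.432, 0.439 and 0.652 RPKM with EtOH, E2 and 16Epi and at 1.15, 1.005 and 0.791 RPKM with 2OHE2, 4OHE1 and 2OHE1 (20 to 58 reads). The log2 difference of Egln3 was 0.84 ± 0.34 SE (limma adjusted p = 0.320).

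Pdk1 encodes a kinase that inhibits pyruvate dehydrogenase. It was at 10.8, 11.8 and 12.2 RPKM with EtOH, E2 and 16Epi and at 10.4, 8.88 and 8.67 RPKM with 2OHE2, 4OHE1 and 2OHE1. It was lower with no overlap (log2 difference -0.32 ± 0.13 SE, limma adjusted p = 0.330). Ndrg1, a stress-induced gene, was at 12.6, 11.03 and 14.96 RPKM with EtOH, E2 and 16Epi and at 10.8, 10.01 and 9.70 RPKM with 2OHE2, 4OHE1 and 2OHE1 (log2 difference -0.33 ± 0.14 SE, limma adjusted p = 0.346). Vegfa, the angiogenic growth factor, was at 2.44, 2.35 and 2.51 RPKM with EtOH, E2 and 16Epi. With 2OHE2 and 2OHE1 it was at 3.47 and 3.03 RPKM, above these, and with 4OHE1 at 1.996 RPKM, below them. Its group difference was 0.18 with an interval of -0.38 to 0.74 (limma adjusted p = 0.816).

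The mitophagy receptors Bnip3 and Bnip3l overlapped between groups, with Bnip3 at 8.86, 6.84 and 5.77 RPKM with EtOH, E2 and 16Epi and at 7.70, 8.66 and 7.86 RPKM with 2OHE2, 4OHE1 and 2OHE1. For it EtOH was the highest library and 16Epi the lowest. Bnip3l was at 6.66 to 7.87 RPKM in controls and 6.80 to 9.52 RPKM with hydroxyestrogens. Their log2 differences were 0.19 (interval -0.20 to 0.59) and 0.15 (-0.22 to 0.52). Adm, which encodes the vasodilator adrenomedullin, was at 1.44, 0.725 and 0.960 RPKM with EtOH, E2 and 16Epi and at 1.08, 1.95 and 1.42 RPKM with 2OHE2, 4OHE1 and 2OHE1, on 17 to 53 reads. The control spread covered most of the range (log2 difference 0.48, interval -0.29 to 1.26). Of the collagen prolyl hydroxylase subunits, P4ha1 was at 28.6 to 30.4 RPKM in all 6 libraries, with a log2 difference of -0.0015 (interval -0.19 to 0.18) that turned to 0.018 with median-ratio scaling. P4ha2, at 1.61 to 2.84 RPKM, had a log2 difference of 0.23 (interval -0.35 to 0.81).

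By compound, each hydroxyestrogen library was set against the same 3 controls, which the 3 comparisons share. With 1 library per compound, the spread behind these tests comes from the 3 controls, and the lone library is assumed to vary like them. The median log2 difference of the glycolytic enzymes was 0.23 with 2OHE2, 0.17 with 4OHE1 and 0.16 with 2OHE1, beside 0.040, -0.063 and -0.022 for all genes tested. That of the non-glycolytic HIF1 targets was 0.13, 0.046 and 0.16, and single controls moved it: without control replicate 1 it was 0.33, 0.077 and 0.31, without control replicate 2 it was 0.11, -0.044 and 0.074, and without control replicate 3 it was 0.066, 0.11 and 0.069. Of the 34 genes, 2 passed with 4OHE1, Gapdh (log2 difference 0.55 ± 0.10 SE, limma adjusted p = 0.0429) and Pgk1 (0.74 ± 0.14 SE, adjusted p = 0.0407), where 3.69% of all genes passed; 15 had an unadjusted p under 0.05 (23.9% of all genes) and 12 passed by limma-voom (13.7%). With 2OHE2 and with 2OHE1, 0 passed, where 0.609% and 0.542% of all genes did. At an unadjusted p under 0.05 there were 12 and 11 (13.8% and 14.2% of all genes), and limma-voom called 6 and 4 (3.86% and 3.12%). Both 4OHE1 calls were lost without control replicate 2 (adjusted p = 0.125 for Gapdh and 0.0954 for Pgk1), and that of Gapdh also without control replicate 3 (0.0546). Against the EtOH library alone, 1 library each and so with no test, the median of the enzymes was 0.19 with 2OHE2, 0.12 with 4OHE1 and 0.10 with 2OHE1. That of the non-glycolytic HIF1 targets was 0.034, -0.032 and -0.020, beside 0.045, -0.056 and -0.014 for all genes tested. The controls themselves were not level: the enzyme median was -0.061 for E2 and -0.18 for 16Epi relative to EtOH.

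**Figure D5:**
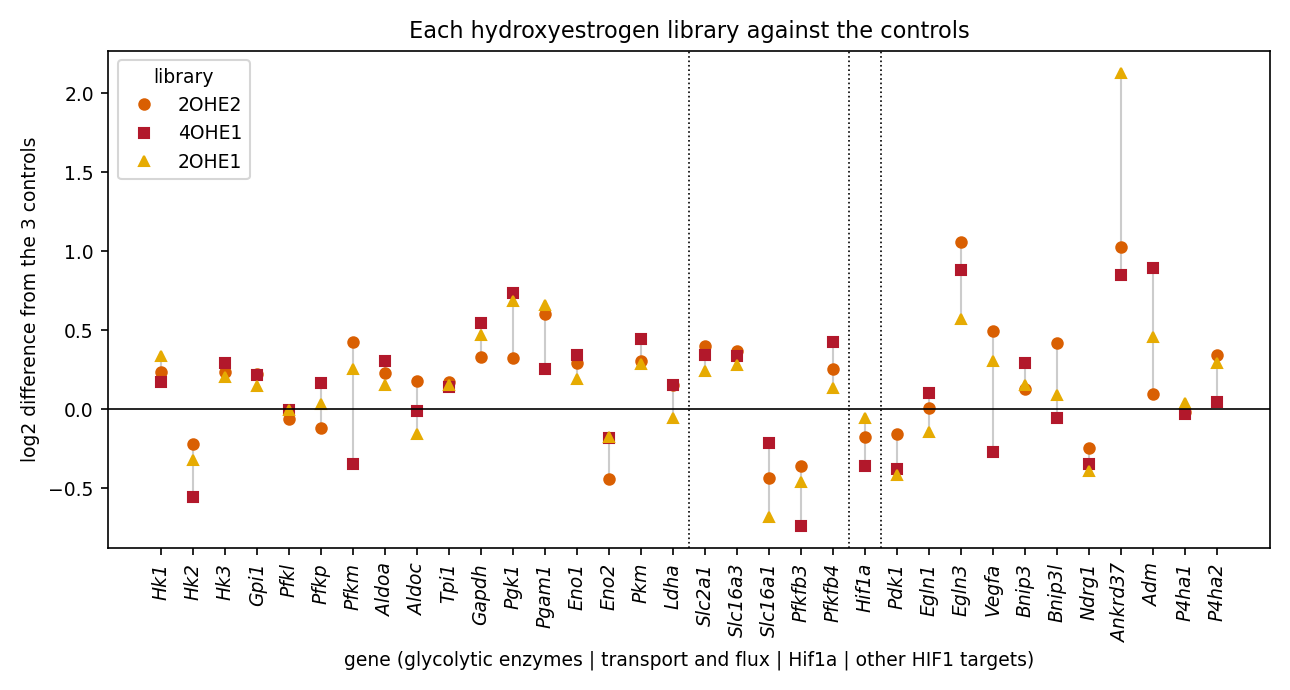
Difference of each hydroxyestrogen library from the 3 controls for all 34 genes, in log2(RPKM + 0.1) units; each point is 1 library, grey lines join the 3 values of a gene, and dotted lines separate the roles. Points lie close together for most enzymes and far apart for Ankrd37, Vegfa, Pfkm and Adm.

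The 3 pairs of hydroxyestrogens, matched in dose and times, were compared with limma and p-values adjusted over all genes and the 3 pairs (35973 tests, 0.0445% called; adjusted within a pair, 0.0417% for 2OHE2 minus 2OHE1, 0.0417% for 4OHE1 minus 2OHE1 and 0.0751% for 4OHE1 minus 2OHE2). In these 3 pairs 0 of the 34 genes passed, and 7 gene and pair combinations had an unadjusted p under 0.05, where 13.8% of all combinations did. Adjusted within each pair, 0 passed by limma-voom, where 1.45% of all combinations did, and 3 in a limma fit of the authors' log2 values, where 2.53% did. 2OHE1 and 4OHE1 are the same ketone estrogen with the added hydroxyl at a different ring position. Between them Pgam1 differed by -0.41 (4OHE1 minus 2OHE1, interval -0.71 to -0.10, adjusted p = 0.281 by limma) and Ankrd37 by -1.28 (interval -2.36 to -0.19, adjusted p = 0.314). 2OHE2 and 2OHE1 share the position and differ in an alcohol or a ketone on the last ring; between them the smallest p was that of Ankrd37, at -1.09 (2OHE2 minus 2OHE1, interval -2.18 to -0.0078, limma adjusted p = 0.361). Gapdh differed by -0.14 in that pair (interval -0.44 to 0.16) and Slc2a1 by 0.16 (-0.073 to 0.39). 4OHE1 and 2OHE2 differ in both respects, and between them Pfkm differed by -0.78 (4OHE1 minus 2OHE2, interval -1.43 to -0.13, limma adjusted p = 0.310), Pgam1 by -0.35 (interval -0.65 to -0.046, adjusted p = 0.320) and Vegfa by -0.77 (interval -1.50 to -0.034, adjusted p = 0.350). Pgk1 went the other way in that pair, at 0.41 (interval 0.014 to 0.81, limma adjusted p = 0.353). These intervals assume that a lone library varies like the controls. The Ankrd37 values rest on 23 reads with 2OHE2, 21 with 4OHE1 and 50 with 2OHE1. That gene passed the filter on low reads only through the hydroxyestrogen group.

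Beyond the 34 genes, 65 other genes of glucose use and the hypoxia response were counted, of which 64 were in the table and 51 passed the filter. limma called 1 higher and 0 lower, where 1.28% and 0.600% of all genes were, and their median log2 difference was 0.023. The called gene was Gbe1, the glycogen branching enzyme, at 16.7, 14.4 and 14.8 RPKM with EtOH, E2 and 16Epi and at 25.8, 26.7 and 26.2 RPKM with 2OHE2, 4OHE1 and 2OHE1. The hydroxyestrogen libraries were nearly identical for it, and it rose by 0.78 ± 0.099 SE on the log2 scale (limma adjusted p = 0.00542). Next in order of p came Mif, a cytokine induced by hypoxia (206 ± 19.3 against 267 ± 21.8 RPKM, SD, n = 3 per group; log2 difference 0.37, limma adjusted p = 0.0725), and Pgm2, a phosphoglucomutase (0.62, adjusted p = 0.115). Both were higher in all 3 hydroxyestrogen libraries than in any control. Of the 51 genes, 4 were higher and 2 lower with no overlap, where 9.15% and 10.8% of all genes tested were. The authors' deposited table calls 3 of the 51 higher (Gbe1, Mif and Pgm2) and 0 lower. Of the 11991 genes tested it calls 334 higher and 247 lower. Mpc1, a subunit of the mitochondrial pyruvate carrier (0.26), Pgam2, the muscle mutase (1.46, at 0.065 to 2.12 RPKM), and Galm, which interconverts sugar anomers (0.33), overlapped between groups. HIF1's partner Arnt (log2 difference 0.024, interval -0.28 to 0.33) and Vhl, which marks HIF1α for degradation (0.060, -0.22 to 0.34), did not pass, and Epas1, which encodes HIF2α, was at 0.927 RPKM on average.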

How the data were processed

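The submitters' processing notes name the mm9 build and the tools STAR, HOMER, DESeq2 and edgeR, with no version. RPKM values were made by the authors with HOMER over exons, 1 entry per gene, per the file headers. Another table deposited by the authors holds log2 expression values by an unnamed transform, a log2 fold change whose sign was opposite to hydroxyestrogens minus controls for all 594 genes it calls and was turned here, and p-values of the authors, raw and adjusted. Groups came from titles and headers. The design had named a test on counts or, without them, limma; the tables hold none.

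RPKM times length and library total gave reads within 0.1 of a whole number for 100% of 1873 to 2607 values per library under 20 reads in genes under 6000 nt. Genes with at least 10 reads in 3 libraries were tested with limma 3.58.1 (R 4.3.3) on log2(RPKM + 0.1), with a variance trend, two-sided, Benjamini-Hochberg adjusted over 11991 genes at 0.05. Compounds were tested with 1 coefficient each and 1 for the controls. The code was tested on simulated data. Members, classes and lists were chosen with earlier results of these data known. Values in every library are given for members that passed, members whose groups did not overlap and 11 further genes (some of them also in the first 2 classes) whatever their values; of the other glucose and hypoxia genes, those that passed and up to 6 with the smallest p are named, and Arnt, Vhl and Epas1 were added after their values were seen. Alternatives were a pseudocount of 1, no filter, 100 reads, median-ratio scaling, no variance trend, limma-voom, the authors' log2 values, a replicate block and each library left out. The tables of subsets of the authors' comparison were not used.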

Additional observations from a re-analysis of the deposited data

How the results depend on the processing

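The glycolytic enzymes higher with no overlap numbered 10 under median-ratio scaling and 10 from the authors' log2 values. With each library left out they numbered 10 or 11, but leaving a library out can only keep or raise such a count. These alternatives were chosen after seeing the data, and no share over all genes is given for them. The median log2 difference of all 17 enzymes was between 0.17 and 0.22 in every alternative run. No filter, no variance trend and the replicate block cannot change this median, so its value there is no sign of stability. Counted with the transport genes the median was 0.21. Counts of called genes moved with the setting. Of the 34 genes in the group comparison (1 called), 2 were called with a pseudocount of 1, 0 with no filter, 6 at 100 reads, 0 without a variance trend, 8 with limma-voom, 8 from the authors' log2 values and 0 to 2 with 1 library left out. Over all genes the calls moved too, from 225 to 224, 94, 350, 12, 433 and 483 in that order of settings and 64 to 191 with a library left out, of 11991 tested, or 16399 with no filter, 9165 at 100 reads and 11706 from the authors' values. With the replicate block the count was 0 (all genes 165), with Gapdh at a limma adjusted p of 0.0522. Same-numbered libraries correlated at -0.0356, 0.0661 and 0.0445 in their deviations from the group means. Differently numbered ones ran from -0.0788 (4OHE1 with 16Epi) to 0.0419 (2OHE2 with 16Epi). Each group holds 3 libraries of different treatments, so these values cannot decide whether the numbers pair cultures. For 2OHE2 (0 called) the count was 2 at 100 reads, 6 with limma-voom and 6 from the authors' values (all genes 73, then 215, 463 and 567). With a control left out it was 0 to 1 (all genes 14 to 180). For 4OHE1 (2 called) it was 0 with no filter, 6 at 100 reads, 0 without a trend, 12 with limma-voom, 14 from the authors' values (all genes 442, then 266, 879, 0, 1639 and 1684) and 0 to 5 with a control left out (all genes 44 to 621). For 2OHE1 (0 called) it was 1 with a pseudocount of 1, 2 at 100 reads, 4 with limma-voom and 8 from the authors' values (all genes 65, then 64, 152, 374 and 541). With a control left out it was 0 to 4 (all genes 8 to 164). The compound pairs had 0 called and 3 from the authors' values. Among the other glucose and hypoxia genes (1 called) it was 3 at 100 reads, 0 without a trend, 3 with limma-voom, 3 from the authors' values and 1 to 2 with a library left out.

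The median of the non-glycolytic HIF1 targets (0.18) was 0.075 at 100 reads, where fewer of them are tested, 0.029 from the authors' values and 0.018 to 0.26 with a library left out; with 2OHE2 (0.13) and 2OHE1 (0.16) it was 0.068 and 0.067 at 100 reads and 0.023 and 0.035 from the authors' values, and with 4OHE1 (0.046) it was -0.044 at 100 reads and -0.044 to 0.11 with a control left out. The gap between the 2 medians (0.019) was 0.14 at 100 reads, 0.15 from the authors' values and -0.067 to 0.17 with a library left out. HIF1 targets higher with no overlap (2) numbered 2 to 5 with a library left out (5 without control replicate 1), where such a count can only stay or rise. Signs near 0 turned for Egln1 with median-ratio scaling (0.0096) and the authors' values (0.0052) and for P4ha1 with both (0.018 and 0.018). They turned with a library left out for Pfkl (-0.081 to 0.045), Pfkp (-0.042 to 0.10), Pfkm (-0.048 to 0.34), Aldoc (-0.082 to 0.084), Egln1 (-0.068 to 0.058) and P4ha1 (-0.023 to 0.026). The cause of these changes was not tested. Ankrd37, Egln3 and Adm rest on 8 to 58 reads per library, which limits their precision.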

Other observations

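Estradiol and its 2-hydroxylated form were both present at the same dose, 1 library each, so their values stand side by side with no test. Between the 2OHE2 and E2 libraries the median log2 difference was 0.19 for the 17 glycolytic enzymes (13 higher), 0.48 for the 11 non-glycolytic HIF1 targets (9 higher) and 0.030 for all genes tested. Among these targets Egln3 differed by 1.21 and Ankrd37 by 1.23 (2OHE2 minus E2, log2), and P4ha2 by 0.78. Pgam1 had the largest difference of the enzymes (0.61), followed by Pfkm (0.41), and Slc16a1 was at -0.54. Set against EtOH in place of E2, the median of the HIF1 targets for 2OHE2 was 0.034, and that of the E2 library relative to EtOH was -0.19.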
